A study of Astyanax mexicanus with 12 samples.

Results

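Embryos of the Pachón cavefish and of surface fish, the river-dwelling form of *Astyanax mexicanus*, were compared at 24 hpf. The comparison rests on 6 of the 12 small RNA libraries of the study, 3 per morph, and on all 683 mature miRNAs in the deposited table. Both groups were labelled wild type, came from whole embryos, and carry no treatment in their labels, which differ by morph only. The remaining libraries, 3 each from the Tinaja and Molino cave morphs at the same stage, served to look up whether a change in Pachón was also present in another cave. The paper's methods describe embryos collected and small RNA isolated by morph, and do not say how embryos were divided among libraries. Whether each library was made from its own clutch or all of a morph from one collection is not given in the sources used here. The SDs and p-values therefore measure spread between libraries, which may be technical. An SD is taken within a morph, whereas the p-values and intervals rest on a spread estimated over all 12 libraries, Tinaja and Molino included.

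miRNAs are short noncoding RNAs cut from hairpin precursors. One strand of the hairpin is loaded into the silencing complex, where bases near its 5′ end, the seed, pair with sites that lie mostly in the 3′ UTRs of mRNAs and lower their translation or stability. In fish embryos, miRNAs are known for clearing maternal mRNAs and for tissue programs of muscle, nerve, and sensory cells. Pachón cavefish are known for eyes that begin to form and then degenerate, reduced pigment, and altered metabolism. The names used here, astmex-miR-1 and so on, are running numbers given by the authors. They do not mark relation to miRNAs of the same number in other species, and no function is assigned to them here. The prefix astmex- is left out below.

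The counts of a library added up to 5539157 to 8537696 in surface fish and to 10035615 to 15279059 in Pachón. Levels are given in CPM, in which the counts of a miRNA are scaled to the same library total after adjustment by TMM factors, which correct for differences in composition. A count of 3 in one library corresponded to 0.201 to 0.291 CPM in Pachón and 0.351 to 0.515 CPM in surface fish. More than 3 counts in every library of the morph were found for 561 miRNAs in Pachón and 483 in surface fish, and no count at all for 27 and 23. The Pachón libraries were the deeper ones, and the limit set by a few counts was lower there.

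Most of the counts belonged to miRNAs that were not called, and most of the called miRNAs were of middle or low abundance. When a 2-fold change or more was asked for along with an adjusted p under 0.05, 109 miRNAs were upregulated in Pachón (16.0% of those tested) and 94 were downregulated (13.8%), together 29.7%. The 109 upregulated miRNAs held 0.0901% ± 0.00523 of the counts in surface fish and 0.354% ± 0.0175 in Pachón (SD, n = 3 libraries each). The 94 downregulated ones went from 0.299% ± 0.0309 to 0.0886% ± 0.00621. All other miRNAs, 480 in number, made up 99.6% of the counts in surface fish and 99.6% in Pachón. These shares describe the sets that the test picked. Whole embryos were used, so a larger number of cells of one type and more RNA per cell cannot be told apart for any of these miRNAs.

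Sorted by the mean level over the 6 libraries, the share of miRNAs called was lowest at the top. Of 133 miRNAs with at least 100 CPM, 5 were upregulated and 3 downregulated, or 6.02%. Of 108 with 10 to 100 CPM, 18 rose and 11 fell, or 26.9%. Of 247 with 1 to 10 CPM, 59 rose and 54 fell, the largest share of these classes at 45.7%. In the 195 miRNAs under 1 CPM the numbers were 27 and 26, or 27.2%. Replicates also scattered more at low levels. The median coefficient of variation of a miRNA across the Pachón libraries was 3.79% with at least 100 CPM, 8.26% with 10 to 100 CPM, and 18.3% with 1 to 10 CPM, and the corresponding values in surface fish were 4.66%, 10.6%, and 23.6%.

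**Figure D1:**
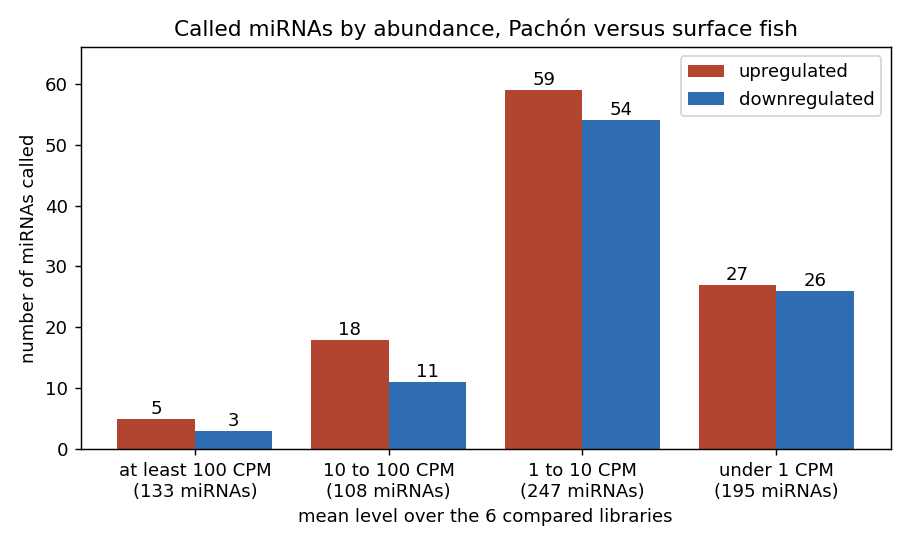
Number of miRNAs called upregulated (red) and downregulated (blue) in Pachón against surface fish (vertical axis) by mean level over the 6 compared libraries (horizontal axis, with the number of miRNAs in each class). The class of 1 to 10 CPM holds 113 of the 203 called miRNAs and the class of at least 100 CPM holds 8.

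Errors were narrowest at the top. For 117 of the 133 miRNAs with at least 100 CPM (88.0%), the 95% interval of the fold change lay wholly within 2-fold in either direction, whereas this held for 61 of 108 with 10 to 100 CPM, 55 of 247 with 1 to 10 CPM, and none of the 195 under 1 CPM. Over the whole list, the interval lay within 2-fold for 233 miRNAs, and 247 were neither called nor limited to less than 2-fold by the data. Among the called miRNAs, 128 of 203 had an interval wholly beyond 2-fold.

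In number, changes under 2-fold were the usual kind at high levels. With at least 100 CPM, 69 miRNAs had an adjusted p under 0.05 but a fold change under 2, 31 of them higher in Pachón and 38 lower. Over all levels there were 137 such miRNAs, 71 higher and 66 lower, and an adjusted p under 0.05 was reached by 340 of 683 in all (49.8%). The CPM ranges of the 3 Pachón and 3 surface fish libraries did not overlap for 223 miRNAs that were higher in Pachón (32.7%) and 189 that were lower (27.7%). Of the 203 called miRNAs, 196 were among these.

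**Figure D2:**
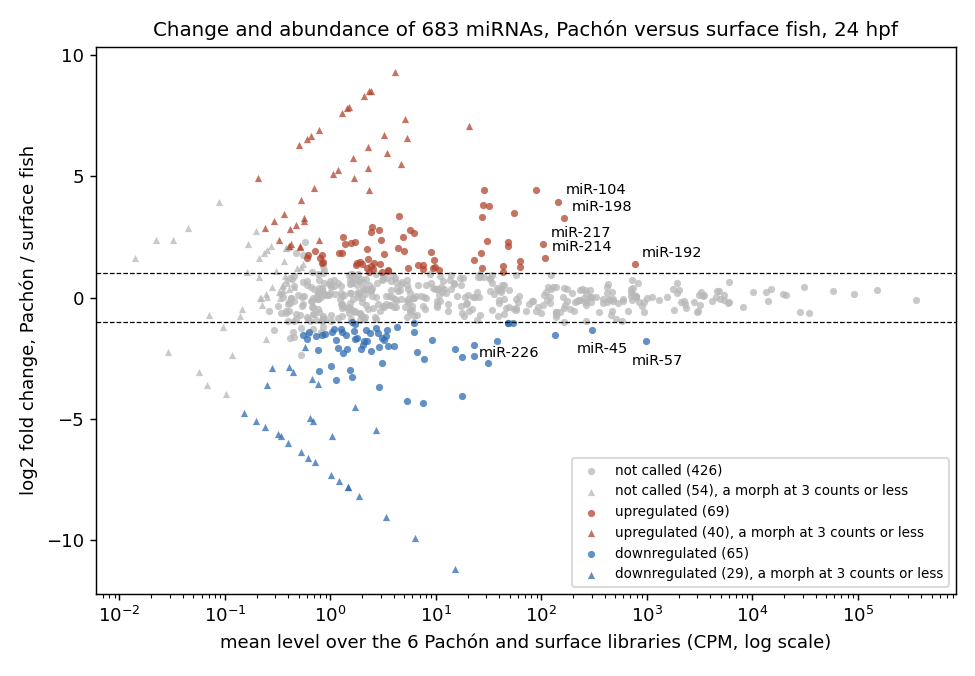
Each point is one of the 683 miRNAs, with its mean level over the 6 compared libraries (horizontal, CPM on a log scale) and its log2 fold change in Pachón against surface fish (vertical). Red points passed both thresholds upward (109) and blue points downward (94), triangles mark miRNAs with at most 3 counts in every library of a morph, dashed lines mark a fold change of 2, the fold changes of the triangles depend on the prior count of the fit and are not bounds, and the labelled points are the 8 called miRNAs with at least 100 CPM.

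The most abundant miRNAs kept their order with small shifts. Of the 10 with the highest mean level, miR-1 to miR-8, miR-10, and miR-13, all were measured in every library and none passed the fold-change rule, while 5 had an adjusted p under 0.05. The first 10 places in both morphs shared 9 miRNAs, and the first 50 places shared 46. miR-1 was the largest in every library, with 393400, 398532 and 324652 CPM in surface fish and 345229, 355584 and 341731 CPM in Pachón. The Pachón values lay inside the surface fish range, and the log2 fold change of −0.10 had a 95% interval of −0.25 to 0.05 (edgeR adjusted p = 0.255). Intervals for miR-2 (−0.08 to 0.66), miR-3 (−0.20 to 0.51), miR-4 (0.04 to 0.52), and miR-8 (−0.04 to 0.25) likewise stayed within 2-fold, with adjusted p-values from 0.0528 to 0.458. The Pachón libraries of miR-2, miR-4, and miR-8 nevertheless lay above all surface fish libraries. A fit of the 6 compared libraries alone gave edgeR adjusted p-values of 0.000389 for miR-2, 0.0402 for miR-3, and 0.000254 for miR-4. For miR-1 and miR-8 they were 0.235 and 0.103. Tinaja libraries, which enter the spread in the fit of all 12, were at 162814, 184457 and 96051 CPM for miR-2. Without Tinaja replicate 3, the edgeR adjusted p-values were 0.0288 for miR-2 and 0.00347 for miR-4. They were 0.237, 0.232, and 0.0814 for miR-1, miR-3, and miR-8.

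The other dominant miRNAs had an adjusted p under 0.05 in the fit of all 12 libraries. miR-5 was at 42080, 44824 and 38387 CPM in surface fish and at 26057, 26519 and 28000 CPM in Pachón, a log2 fold change of −0.64 (SE 0.07, edgeR adjusted p = 1.11e-06). miR-7 fell similarly, from 34749, 34680 and 33643 CPM to 22676, 23102 and 22278 CPM, a log2 fold change of −0.60 (SE 0.06, edgeR adjusted p = 7.31e-07). The libraries of the morphs did not overlap for either miRNA, and for miR-5 the level in Tinaja (39131 ± 2212 CPM) was close to that of surface fish, with a log2 difference between Pachón and Tinaja of −0.54 (SE 0.07, edgeR adjusted p = 6.62e-06). In Molino, miR-5 was also below surface fish, at 30498 ± 1804 CPM, a log2 fold change of −0.45 (SE 0.07, edgeR adjusted p = 3.6e-05). miR-7 was below surface fish in both other caves, with log2 fold changes of −0.31 in Tinaja and −0.34 in Molino (edgeR adjusted p = 0.000647 and 0.000212). On the other side, miR-6 rose from 26456 ± 524 CPM to 35415 ± 2253 CPM, a log2 fold change of 0.42 (SE 0.06, edgeR adjusted p = 3.43e-05). miR-13 went from 13466, 13177 and 13365 CPM to 15502, 18216 and 16741 CPM, a log2 fold change of 0.33 (SE 0.07, edgeR adjusted p = 0.000551), and was lower in Molino than in either, at 6727 ± 371 CPM. miR-10 had the smallest of these shifts, at 0.16 (SE 0.05, edgeR adjusted p = 0.0244). The edgeR adjusted p of miR-10 was 0.156 with library sizes alone, 0.138 with the exact test, and 0.0736 after thinning. It was 0.0791 without Pachón replicate 2 and 0.088 without Pachón replicate 3. Apart from glmTreat, which tests against 2-fold, the other alternatives kept the adjusted p under 0.05. Examples were RLE factors (edgeR adjusted p = 0.0381) and DESeq2 (DESeq2 adjusted p = 0.00864).

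A group of less dominant miRNAs stopped just short of the fold-change rule. The smallest adjusted p-values among miRNAs with at least 100 CPM and a change under 2-fold belonged to miR-85, miR-89, miR-191, and miR-86, all of them lower in Pachón. miR-85 had 219, 219 and 212 CPM in surface fish and 102, 113 and 113 CPM in Pachón, a log2 fold change of −0.99 (SE 0.07, edgeR adjusted p = 5.23e-09). miR-89 had 344, 336 and 372 CPM against 166, 175 and 191 CPM, a log2 fold change of −0.98 (SE 0.07, edgeR adjusted p = 1.46e-08). In each of these miRNAs every Pachón library lay below every surface fish library, and the fold change of 1.99 for miR-85 left it outside the called set by the threshold alone. The means of miR-191 were 775 ± 64.4 CPM in surface fish and 399 ± 25.0 CPM in Pachón, a log2 fold change of −0.96 (SE 0.08, edgeR adjusted p = 9.4e-08), and those of miR-86 were 176 ± 7.30 CPM and 101 ± 5.68 CPM, a log2 fold change of −0.80 (SE 0.07, edgeR adjusted p = 1.92e-07).

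The 8 called miRNAs with at least 100 CPM comprised 5 that rose, miR-104, miR-198, miR-217, miR-214, and miR-192, and 3 that fell, miR-57, miR-226, and miR-45. This level is the mean over both morphs, and only miR-57, miR-192, and miR-45 had it in each morph. The others reached it through the morph in which they were higher. With classes by the mean over all 12 libraries, 5 were upregulated and 2 downregulated at this level, and miR-104 and miR-226 fell below it. miR-104 had the largest change among them. It was at 16.7, 18.9 and 17.3 CPM in surface fish and at 259, 286 and 274 CPM in Pachón, a log2 fold change of 3.95 (SE 0.11, edgeR adjusted p = 7.42e-14). By mean level it was the miRNA of rank 203 in surface fish and of rank 93 in Pachón. miR-198 came next, with 29.2, 28.0 and 35.4 CPM against 289, 311 and 298 CPM, a log2 fold change of 3.28 (SE 0.10, edgeR adjusted p = 3.81e-13). All libraries of one morph were clear of all libraries of the other for both, by a gap many times the range within a morph.

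miR-217 rose from 35.8, 33.6 and 42.4 CPM to 214, 132 and 171 CPM, a log2 fold change of 2.21 (SE 0.20, edgeR adjusted p = 1.77e-07). Its Pachón libraries scattered more than those of the other risers, though the lowest of them still exceeded every surface fish library. In miR-214 the libraries went from 47.8, 56.5 and 55.1 CPM to 161, 152 and 174 CPM, a log2 fold change of 1.61 (SE 0.08, edgeR adjusted p = 1.25e-10). miR-192, the most abundant of the risers, went from 432, 418 and 426 CPM to 1130.1, 1092 and 1126 CPM, a log2 fold change of 1.39 (SE 0.08, edgeR adjusted p = 1.12e-09). That places miR-192 at rank 77 in surface fish and 45 in Pachón.

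The most abundant called miRNA was miR-57, which fell from 1505, 1544 and 1556 CPM to 387, 504 and 433 CPM, a log2 fold change of −1.80 (SE 0.09, edgeR adjusted p = 6.55e-11). miR-226 fell from 212, 195 and 196 CPM to 67.5, 67.6 and 68.7 CPM, a log2 fold change of −1.56 (SE 0.10, edgeR adjusted p = 1.51e-09). Both were separated between morphs in every library. miR-45 was less certain. Its surface fish libraries were at 213, 448 and 629 CPM, a wide range within one morph, while the Pachón libraries were at 165, 173 and 171 CPM, a log2 fold change of −1.34 (SE 0.25, edgeR adjusted p = 0.00036). Without surface replicate 3 the log2 fold change of miR-45 was −0.92 (edgeR adjusted p = 0.00221), which misses the fold-change rule.

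**Figure D3:**
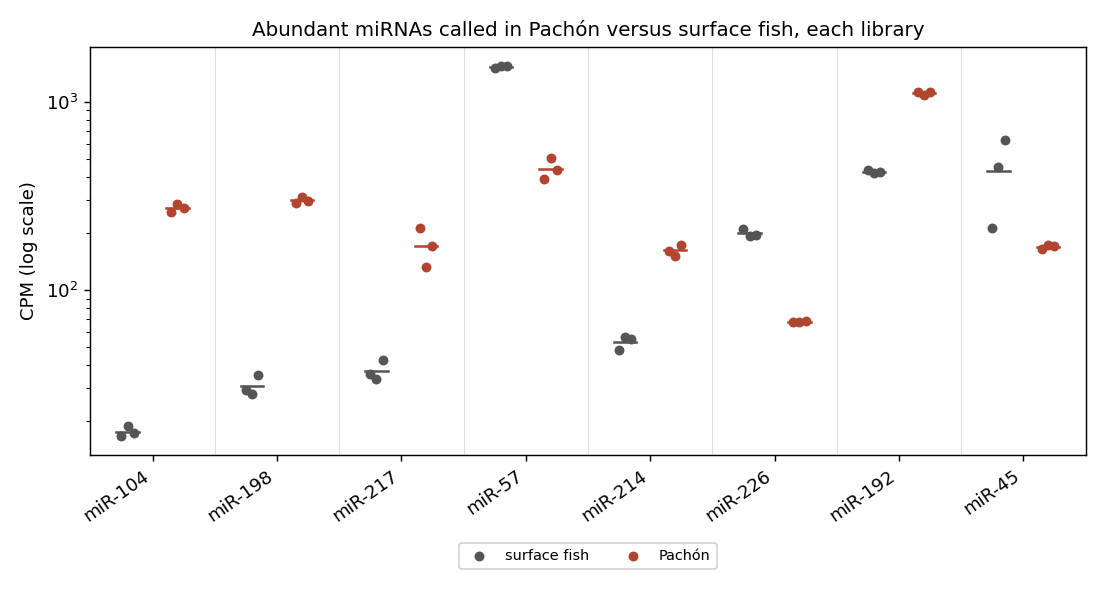
Level of the 8 called miRNAs with a mean of at least 100 CPM over both morphs (CPM on a log scale, vertical). Points are the surface fish (grey) and Pachón (red) libraries, with a bar at the mean of the 3 libraries. The points of the morphs are apart for each miRNA, and the surface fish points of miR-45 spread from 213 to 629 CPM.

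Fold changes can be read at face value only where both morphs had counts. More than 3 counts in each of the 6 libraries were present for 444 miRNAs, 49 of them upregulated and 49 downregulated. Among the 49 upregulated ones, 32 changed 2- to 4-fold, 9 changed 4- to 8-fold, and 8 at least 8-fold, up to 21.6-fold. Among the 49 downregulated ones, the numbers were 35, 12, and 2, up to 19.3-fold.

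The largest rises in that set were those of miR-246, miR-215, miR-104, miR-267, and miR-122. miR-246 went from 1.87, 3.56 and 2.23 CPM in surface fish to 59.7, 50.6 and 53.2 CPM in Pachón, a log2 fold change of 4.43 (SE 0.17, edgeR adjusted p = 3.34e-12). miR-215 went from 8.18, 7.43 and 7.73 CPM to 169, 161 and 176 CPM, a log2 fold change of 4.43 (SE 0.10, edgeR adjusted p = 1.77e-13). Either one changed 21.6-fold, and by mean level in surface fish they held ranks 346 and 249. miR-267 rose from 2.57, 4.33 and 4.46 CPM to 50.6, 51.8 and 52.8 CPM, a log2 fold change of 3.81 (SE 0.16, edgeR adjusted p = 1.25e-11). miR-122 rose from 4.44, 5.41 and 3.09 CPM to 60.2, 63.4 and 53.8 CPM, a log2 fold change of 3.76 (SE 0.19, edgeR adjusted p = 9.97e-11). miR-104, described above, had the third largest rise. The other miRNAs of this group had between 13 and 70 counts per library in surface fish, and between 544 and 2400 in Pachón.

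The largest falls belonged to miR-260, miR-251, miR-225, miR-374, and miR-351. miR-260 was at 9.94, 10.2 and 10.3 CPM in surface fish and at 0.426, 0.602 and 0.485 CPM in Pachón, a log2 fold change of −4.27 (SE 0.28, edgeR adjusted p = 2.63e-09), and the Pachón values rest on 5, 9 and 5 counts. miR-251 fell from 31.3, 35.7 and 33.0 CPM to 1.62, 1.94 and 2.43 CPM, a log2 fold change of −4.06 (SE 0.13, edgeR adjusted p = 5.07e-13). The fold changes were 19.3 and 16.7. miR-225 fell from 54.5, 58.8 and 49.6 CPM to 8.26, 8.30 and 8.34 CPM, a log2 fold change of −2.71 (SE 0.12, edgeR adjusted p = 2.34e-11). miR-374 fell from 5.30 ± 0.277 CPM to 0.826 ± 0.464 CPM, a log2 fold change of −2.69 (SE 0.31, edgeR adjusted p = 2.16e-06), and miR-351 from 13.1 ± 3.54 CPM to 2.25 ± 0.123 CPM, a log2 fold change of −2.52 (SE 0.26, edgeR adjusted p = 6.84e-07). No Pachón library reached the lowest surface fish library for any of these.

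A further set of miRNAs was at or near 0 in one morph. Among the 109 upregulated miRNAs, 40 never exceeded 3 counts in a surface fish library, and 12 of them had none there. Among the 94 downregulated, 29 never exceeded 3 counts in a Pachón library, and the number with none was 17. Most of them were rare in the other morph too. In Pachón the 40 had means of 0.409 to 40.5 CPM (median 1.81), and in surface fish the 29 had 0.304 to 30.2 CPM (median 1.25). The surface fish libraries are the shallower ones, which bears on the first set. When counts were drawn at random so that every library had the depth of the smallest, 34 of these 40 were still called upregulated and 26 of the 29 downregulated.

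Of those near 0 in surface fish, the highest Pachón levels were those of miR-141, miR-304, miR-359, and miR-373. Ratios for them are given with the exact Poisson interval of the surface fish counts pooled over its libraries, which reflects counting error alone, because the libraries hold no molecular identifiers and PCR copies count as separate reads. miR-141 had 3, 2 and 1 counts in surface fish and 473, 640 and 397 counts in Pachón, a ratio of the levels of 141-fold (95% counting interval 64.7 to 384). miR-304 had 0, 2 and 0 counts and 121, 166 and 105 counts, 109.8-fold (95% counting interval 30.4 to 906). The intervals are wide, so the counts set the direction firmly and the size loosely. miR-359 had 1, 0 and 0 counts against 129, 148 and 98 counts, 211-fold (95% counting interval 37.9 to 8340.5). miR-373 had 1, 2 and 1 counts against 97, 131 and 110 counts, 48.1-fold (95% counting interval 18.8 to 177). The edgeR adjusted p-values for these miRNAs lay between 2.78e-12 and 7.27e-09.

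In the other direction, miR-273, miR-305, and miR-511 had no count in any Pachón library. Reads of all morphs were aligned to the same precursors, and whether sequence differences between morphs contribute to a count of 0 was not tested. The fold change is given as at least the value computed against 3 counts over the Pachón libraries combined (0.0811 CPM). By the 95% counting interval of the Pachón counts, the lower ends were 303-, 126-, and 67.5-fold. Both take the surface fish mean as exact. miR-273 had 264, 168 and 197 counts in the surface fish libraries (30.9, 26.0 and 33.8 CPM) and was at least 373-fold lower in Pachón (edgeR adjusted p = 2.23e-10). miR-305 had 116, 88 and 61 counts and was at least 155-fold lower (edgeR adjusted p = 9.47e-11). Of all miRNAs without a Pachón count, miR-273 was the most abundant in surface fish. miR-511 had 66, 44 and 33 counts and was at least 83.0-fold lower (edgeR adjusted p = 1.5e-06). miR-526, with 36, 33 and 38 counts in surface fish against 1, 3 and 0 counts in Pachón, was 48.8-fold (95% counting interval 19.1 to 179) lower (edgeR adjusted p = 1.97e-07).

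The 203 calls in Pachón were then looked up in Tinaja and Molino. These comparisons share libraries with the first one, so the numbers are descriptions. For scale, 14.1% of all miRNAs were upregulated and 14.6% downregulated in Tinaja, and 23.6% and 11.3% in Molino, each against surface fish. Of the 109 upregulated miRNAs, 26 were also called upregulated in both of the other caves, 26 in Tinaja only, 26 in Molino only, and 31 in neither. Of the 94 downregulated miRNAs, 17 were also called in both, 38 in Tinaja only, 8 in Molino only, and 31 in neither. A missing call in another cave does not show a difference from that cave, so each miRNA was also tested for Pachón directly against Tinaja and against Molino by the same test and thresholds. Over all miRNAs, 14.2% were higher and 10.7% lower in Pachón than in Tinaja (24.9% together), and 15.4% were higher and 24.2% lower in Pachón than in Molino (39.5% together).

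The direct tests removed some of these miRNAs and added others. Of the 31 miRNAs upregulated in Pachón alone, 24 were higher in Pachón than in both other caves, and 4 passed neither direct test. Of the 31 downregulated in Pachón alone, 21 were lower than in both, and 4 passed neither. Another 6 upregulated miRNAs and 1 downregulated one were also called in another cave but moved further in Pachón. In all, 30 miRNAs (4.39% of those tested) were higher and 22 (3.22%) lower in Pachón than in surface fish, Tinaja, and Molino alike.

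**Figure D4:**
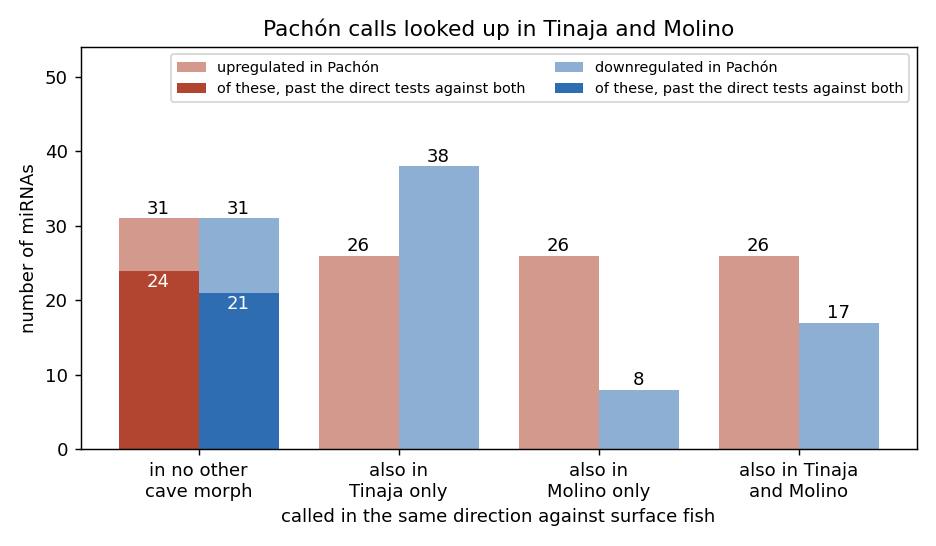
Number of miRNAs (vertical) upregulated (red) or downregulated (blue) in Pachón against surface fish, by whether they were called in the same direction in Tinaja or Molino (horizontal). The darker part of the left bars, 24 and 21, passed the direct tests of Pachón against both other caves.

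The 30 miRNAs that were highest in Pachón were miR-104, miR-141, miR-158, miR-246, miR-258, miR-267, miR-291, miR-321, miR-324, miR-332, miR-359, miR-373, miR-397, miR-409, miR-453, miR-464, miR-484, miR-486, miR-500, miR-508, miR-509, miR-527, miR-532, miR-547, miR-604, miR-631, miR-634, miR-645, miR-657, and miR-662. Their mean levels in Pachón ran from 1.0 to 273 CPM with a median of 4.33 CPM, and for all 30 every Pachón library was above each of the 9 libraries of the other morphs. Such complete separation upward was found for 9.52% of all miRNAs. The 30 were picked by calls on these same libraries, so their separation follows largely from the rule and is no further support. In 7 of the 30, no library outside Pachón had more than 3 counts. The share of all miRNAs at that level outside Pachón was not computed. The other caves differed in how they stood to surface fish. Molino was called below surface fish for 6 of the 30 and Tinaja for none, and 18 were called in neither. Over all miRNAs, 11.3% were called below surface fish in Molino and 14.6% in Tinaja. The rule asks for higher levels in Pachón than in these caves and so favours miRNAs low in them. The numbers for Molino and Tinaja follow in part from it.

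For a ranking, miRNAs with a mean under 1 CPM over the 12 libraries were set aside. The rest were ordered by the smallest of the fold changes against the other morphs, and the first 5 were miR-509, miR-453, miR-246, miR-373, and miR-267. miR-509 and miR-453 passed the limit of 1 CPM through Pachón alone. Fitted fold changes against a morph at or near 0 depend on the prior count of the fit, so this order is a description. miR-509 had 49, 58 and 46 counts in Pachón, 1 count in all other libraries together, found in a Molino library, and 4.17, 3.88 and 4.46 CPM. Its level was at least 29.0-fold that of surface fish and at least 48.0-fold that of Tinaja, computed against 3 counts over each of these groups. miR-453 had 60, 59 and 46 counts in Pachón and at most 3 counts in any other library (edgeR adjusted p = 2.48e-06 against surface fish, 5.66e-07 against Tinaja, and 3.16e-06 against Molino). Both are scarce miRNAs that only Pachón libraries showed in more than 3 counts.

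miR-246 and miR-267 were present in every morph and had risen to a middle level in Pachón alone. Against 54.5 ± 4.69 CPM in Pachón, miR-246 was at 2.55 ± 0.889 CPM in surface fish, 1.26 ± 0.125 CPM in Tinaja, and 0.768 ± 0.115 CPM in Molino. The log2 differences of Pachón from Tinaja and Molino were 5.43 (SE 0.17, edgeR adjusted p = 4.41e-13) and 6.12 (SE 0.20, edgeR adjusted p = 2.09e-13). miR-267 was at 51.7 ± 1.11 CPM in Pachón, 2.58 ± 0.122 CPM in Tinaja, and 1.50 ± 0.415 CPM in Molino. For miR-246 and miR-267, Molino was called below surface fish, with log2 fold changes of −1.69 (edgeR adjusted p = 0.000231) and −1.29 (edgeR adjusted p = 0.000442). miR-373 stood at 9.23 ± 1.27 CPM in Pachón against 0.199 ± 0.0992 CPM in surface fish, 0.651 ± 0.212 CPM in Tinaja, and 0.468 ± 0.189 CPM in Molino. Unlike miR-246 and miR-267, it was also called upregulated in Tinaja against surface fish (log2 fold change 1.67, edgeR adjusted p = 0.0311).

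miR-104, the most abundant miRNA of the set, was at 21.1 ± 2.01 CPM in Tinaja and 13.4 ± 1.68 CPM in Molino, near its surface fish level, so the rise described above was found in the Pachón libraries only. The log2 difference from Tinaja was 3.70 (SE 0.10, edgeR adjusted p = 1.07e-13) and from Molino 4.35 (SE 0.11, edgeR adjusted p = 4.73e-15). miR-141 showed another form. It was called upregulated in all caves, yet at 40.5 CPM in Pachón it exceeded its levels of 5.05 ± 0.756 CPM in Tinaja and 4.89 ± 1.31 CPM in Molino, with log2 differences of 2.98 (SE 0.15, edgeR adjusted p = 1.52e-10) and 3.05 (SE 0.16, edgeR adjusted p = 8.93e-11).

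The 22 miRNAs that were lowest in Pachón were miR-45, miR-219, miR-225, miR-266, miR-268, miR-305, miR-360, miR-367, miR-374, miR-391, miR-398, miR-415, miR-429, miR-439, miR-461, miR-482, miR-505, miR-554, miR-591, miR-603, miR-632, and miR-679. Every Pachón library lay below each of the 9 other libraries for 20 of them, which follows largely from how the set was picked. Over all miRNAs this share was 5.71%. In 9 of the 22, every Pachón library had at most 3 counts. Of all 683 miRNAs, 32 were at that level in Pachón but not in surface fish, and 17 in both. With each library left out in turn, 11 of the 22 stayed in the set in all 12 fits. Molino was called above surface fish for 10 of the 22 and Tinaja for 4. Over all miRNAs, 23.6% were called above surface fish in Molino and 14.1% in Tinaja. The rule asks for lower levels in Pachón than in these caves and so favours miRNAs high in them. The numbers for Molino and Tinaja follow in part from it. The set holds miRNAs on which the caves differed from surface fish in opposite directions as well as miRNAs low in Pachón alone.

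miR-305 was the clearest case of a miRNA without counts in Pachón alone. It was found in each library of the other morphs, with 13.6, 13.6 and 10.5 CPM in surface fish, 14.0, 12.7 and 12.1 CPM in Tinaja, and 12.5, 13.9 and 11.5 CPM in Molino, and in no Pachón library. Measured against 3 counts over the Pachón libraries, it was at least 159-fold lower than in Tinaja and at least 156-fold lower than in Molino. The levels of miR-305 in the other morphs differed little. Tinaja stood to surface fish at a log2 fold change of 0.04 (95% interval −0.28 to 0.35, edgeR adjusted p = 0.867), and Molino at 0.00 (95% interval −0.34 to 0.34).

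The next in rank, miR-461, miR-429, and miR-398, also had no Pachón count, but their surface fish levels were low. They passed the limit of 1 CPM through Molino, at 3.24, 9.34, and 14.5 CPM, the only morph where they exceeded it. Without a Pachón count, their rank depends on the prior count of the fit. miR-461 had 4, 7 and 2 counts in surface fish, 17, 9 and 7 counts in Tinaja, and 31, 21 and 24 counts in Molino. miR-429 had 5, 1 and 1 counts, 9, 3 and 3 counts, and 60, 79 and 79 counts. Against surface fish the lower limits were therefore modest, 7.79-fold for miR-461, 3.74-fold for miR-429, and 4.86-fold for miR-398, and the call of miR-429 was lost without surface replicate 1 (edgeR adjusted p = 0.0787). miR-415 had counts in all morphs, with 0.427 ± 0.0401 CPM in Pachón against 2.21 ± 0.439 CPM in surface fish, 5.61 ± 1.28 CPM in Tinaja, and 2.49 ± 0.944 CPM in Molino. Its log2 fold change against surface fish was −2.30 (SE 0.42, edgeR adjusted p = 0.000252).

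At middle levels, miR-225 was the most abundant of the miRNAs lowest in Pachón apart from miR-45 and miR-219. Beside 8.30 ± 0.0433 CPM in Pachón, its Tinaja mean was 36.1 ± 4.12 CPM and its Molino mean 83.2 ± 10.2 CPM, log2 differences of −2.12 (SE 0.12, edgeR adjusted p = 5.58e-10) and −3.32 (SE 0.12, edgeR adjusted p = 8.19e-13). Its Pachón libraries were closely alike, as given above. miR-45 was also lowest in Pachón, at 169.9 CPM against 639.7 ± 129.8 CPM in Tinaja and 983 ± 61.9 CPM in Molino, with log2 differences of −1.91 (SE 0.26, edgeR adjusted p = 1.29e-05) and −2.53 (SE 0.26, edgeR adjusted p = 4.7e-07).

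**Figure D5:**
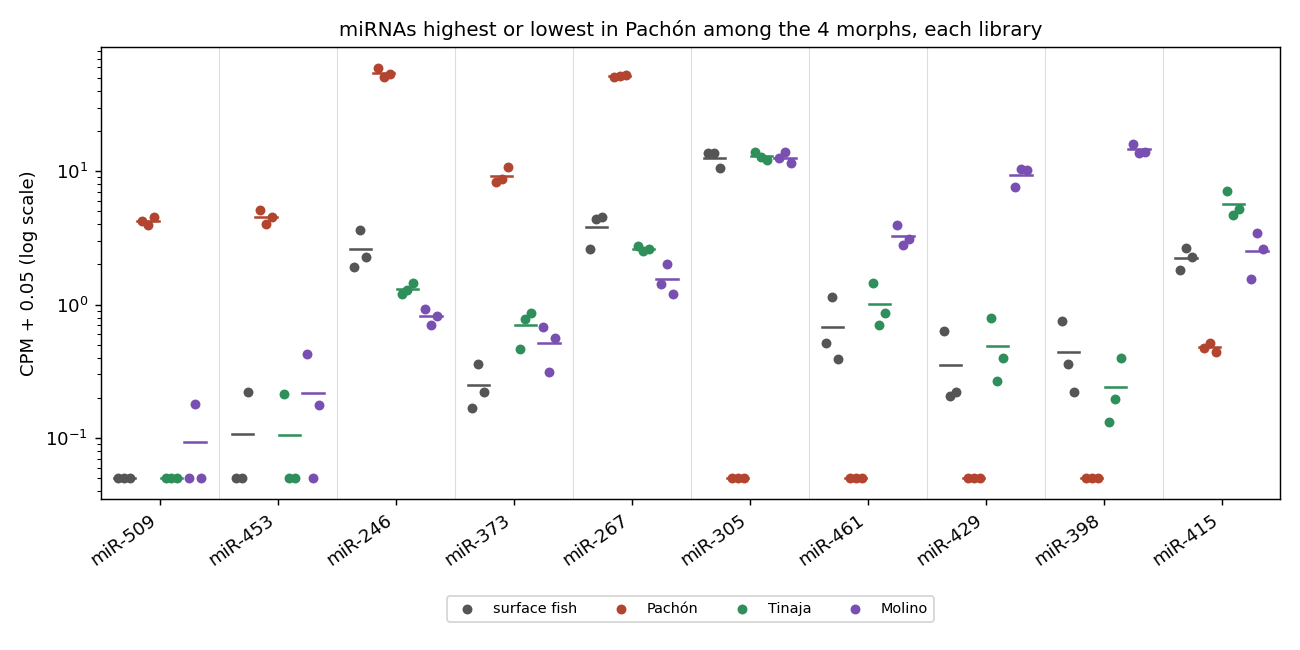
Level in each library of the 4 morphs (CPM plus 0.05 on a log scale, vertical, with a bar at the mean) for the 5 miRNAs highest and the 5 lowest in Pachón by the smallest fold change against the other morphs. Pachón points lie above all others in the first 5 miRNAs and below all others in the last 5, where miR-305, miR-461, miR-429, and miR-398 sit at 0.

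Several Pachón changes were also found in one or both of the other caves. miR-198 was called upregulated in both, at 251 ± 15.2 CPM in Molino and 101 ± 10.4 CPM in Tinaja, where its log2 fold change against surface fish was 1.71 (SE 0.10, edgeR adjusted p = 7.61e-10). miR-217 was at 178 ± 10.2 CPM in Molino. Its log2 difference between Pachón and Molino was −0.05 with a 95% interval of −0.45 to 0.35, whereas Tinaja, at 44.7 ± 15.2 CPM, stood near surface fish. miR-122 was high in Pachón and Molino only, at 42.6 ± 4.65 CPM in Molino against 3.07 ± 1.12 CPM in Tinaja. miR-304 shared this pattern, with 105, 90 and 80 counts in Molino and 2, 0 and 0 counts in Tinaja. miR-359 was also called upregulated in Tinaja, with 34, 30 and 35 counts, and had 1, 0 and 1 counts in Molino. miR-260 and miR-251, by contrast, were low in Tinaja as well, at 0.489 ± 0.336 CPM and 1.60 ± 0.177 CPM. In Molino they stood above surface fish, at 27.0 ± 4.33 CPM and 115 ± 6.42 CPM, log2 fold changes of 1.41 and 1.79 (edgeR adjusted p = 4.12e-06 and 2.31e-10). miR-273 had no count in Tinaja either, and 365, 370 and 287 counts in Molino. miR-511 had no count in any Tinaja or Molino library, so it was counted in surface fish only. miR-526 had 0, 1 and 0 counts in Tinaja and 5, 8 and 9 counts in Molino, and was called downregulated in both.

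Among the abundant miRNAs, miR-57, miR-192, and miR-214 moved in the same direction in all caves. miR-57 had a mean of 515 ± 13.4 CPM in Tinaja and of 618 ± 47.4 CPM in Molino, which against surface fish gave log2 fold changes of −1.58 and −1.31 (edgeR adjusted p = 4.66e-10 and 2.3e-09). miR-192 and miR-214 had their highest mean levels in Pachón, while their rises in Tinaja, 0.65 and 0.81 on the log2 scale, stayed under the fold-change rule. miR-226 fell in all caves but least in Pachón, where it kept 67.9 CPM against 3.02 CPM in Tinaja and 12.6 CPM in Molino. The log2 difference of Pachón from Tinaja was 4.48 (SE 0.13, edgeR adjusted p = 1.4e-13).

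Opposite calls were more numerous against Molino. Of the 203 miRNAs called in Pachón, 34 were called in the opposite direction in Molino and 8 in Tinaja. Of the 94 downregulated in Pachón, 25 were upregulated in Molino, beside 23.6% of all miRNAs. Of the 109 upregulated in Pachón, 9 were downregulated in Molino, beside 11.3% of all miRNAs. For Tinaja these numbers were 7 and 1, beside 14.1% and 14.6% of all miRNAs. The Molino list is the longer of the lists searched, with 238 calls against 196 in Tinaja, and whether the numbers differ beyond that was not tested. The near-0 miRNAs were looked up in the same way. Of the 40 upregulated miRNAs with at most 3 counts in every surface fish library, 15 were also at that level in Molino but not Tinaja, 4 in Tinaja but not Molino, and 7 in both. Of the 29 downregulated ones near 0 in Pachón, 13 were near 0 in Tinaja but not Molino, 3 in Molino but not Tinaja, 2 in both, and 11 in neither. The cutoff is in counts and depends on depth, since 3 counts over the group were 0.128 CPM in Molino and 0.0869 CPM in Tinaja. The share of all miRNAs at that level in these morphs was not computed, so these numbers do not compare the caves.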

How the data were processed

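Small RNA of whole embryos at 24 hpf was sequenced from 4 morphs, 3 libraries each. The authors trimmed adapters with cutadapt 2.5, removed short reads and reads of other RNA classes, called miRNAs with miRDeep2 on the reads of all libraries combined and an *A. mexicanus* genome, aligned reads to the precursors, and deposited raw counts per mature miRNA and library. Identical miRNAs were collapsed, and candidates sharing a seed with a zebrafish miRNA were kept regardless of the score and count filters. Counting used the default settings of the miRDeep2 quantifier. How these settings share reads that match several similar miRNAs is not stated in the sources used here, so near-identical miRNAs are uncertain. Sequences were not analysed here.

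The deposited counts of all 12 libraries, 683 miRNAs and no filter, were fitted in edgeR 4.0.16 (R 4.3.3) with TMM factors and the quasi-likelihood test, as counted data require. Benjamini−Hochberg adjustment ran over all miRNAs. To be called upregulated or downregulated, a miRNA needed a 2-fold change or more and an adjusted p under 0.05, the thresholds in the paper's methods. A standard error (SE) is the size of the log2 fold change divided by the square root of F. An exact permutation test of 3 against 3 libraries cannot go below p = 0.1. Replicate libraries differed by more than counting noise. Tinaja replicate 3 had a chi-square per degree of freedom of 436 and 641 against the other Tinaja libraries. No other pair of replicates exceeded 208. Groups of 3 are too small for a test of outlying libraries. The fits were checked on simulated counts.

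The members, rules, and alternatives were chosen with earlier results of these data known. Named miRNAs are the 10 most abundant, the called ones with at least 100 CPM, the 5 largest changes each way with more than 3 counts in all 6 libraries, the 4 most abundant each way that are near 0 in one morph, the 5 highest and 5 lowest in Pachón against all morphs (mean of at least 1 CPM over the 12 libraries), the 3 largest opposite calls for each other cave, and the 4 smallest adjusted p-values under 2-fold with at least 100 CPM. The complete lists of miRNAs highest or lowest in Pachón, and miR-219, are named beside this rule. Alternatives were library sizes alone, RLE factors, DESeq2 1.42.0, the exact test of edgeR, the 6 compared libraries, 3 low-count filters, glmTreat, no fold-change rule, thinning, the replicate block, and leaving out each library. 0 columns of values were unused.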

Additional observations from a re-analysis of the deposited data

Results flagged for a closer look

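Some miRNAs were called in opposite directions against surface fish in Pachón and in another cave. Their difference between the caves is given from the direct comparison, and the comparisons against surface fish share libraries. These miRNAs were picked by their opposite changes in the same fit. A large difference between the caves therefore follows from the choice, and its p-value is no separate test. For Tinaja, the log2 difference of Pachón minus Tinaja was −4.64 (SE 0.65, edgeR adjusted p = 4.12e-05) for miR-560, −4.21 (SE 0.29, edgeR adjusted p = 6.4e-09) for miR-439, and −3.24 (SE 0.17, edgeR adjusted p = 1.95e-10) for miR-266. miR-266 was at 11.6, 15.5 and 16.0 CPM in surface fish, 2.89, 5.02 and 4.66 CPM in Pachón, and 35.7, 42.5 and 41.5 CPM in Tinaja, so that the libraries of the 3 morphs did not overlap. miR-560 and miR-439 were scarce, with 2, 1 and 0 counts and 2, 4 and 4 counts in Pachón. Their downregulation in Pachón against surface fish was not called under every alternative. After thinning, the call was lost for miR-560 (edgeR adjusted p = 0.0504) and for miR-439 (log2 fold change −0.65, edgeR adjusted p = 0.44), and that of miR-439 was also lost with glmTreat (edgeR adjusted p = 0.202).

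For Molino, the log2 difference of Pachón minus Molino was −10.13 (SE 0.51, edgeR adjusted p = 3.79e-10) for miR-398, −9.49 (SE 0.64, edgeR adjusted p = 1.05e-08) for miR-429, and 13.67 (SE 0.23, edgeR adjusted p = 1.38e-15) for miR-215. Each of these has a morph at 0 in all libraries, so the fitted difference is not a bound. Measured against 3 counts over the libraries at 0, miR-398 was at least 179-fold and miR-429 at least 115-fold higher in Molino than in Pachón, and miR-215 at least 1313-fold higher in Pachón than in Molino. The Pachón mean of miR-215 was 168 ± 7.78 CPM and its Tinaja mean 106 ± 6.12 CPM, a log2 difference of 0.66 (SE 0.08, edgeR adjusted p = 7.93e-06).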

How the results depend on the processing

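The numbers of upregulated and downregulated miRNAs, of those highest and lowest in Pachón, and of those called in Pachón alone depended most on the low-count filter and the fold-change rule. With at least 10 counts required in every library, which left 311 miRNAs, there were 29 upregulated, 22 downregulated, 4 highest, 6 lowest, and 6 up and 8 down in Pachón alone. With a mean of at least 10 counts, 20 were up in Pachón alone. With glmTreat, which tests against 2-fold, the numbers were 67 up, 61 down, 10 lowest, and 19 down in Pachón alone. Without the fold-change rule they were 180 up, 160 down, 56 highest, 35 lowest, and 48 up in Pachón alone. Fewer miRNAs or another threshold are the construction of these alternatives. DESeq2 called 104 up and 91 down, and thinning 97 and 93. With each library left out in turn there were 107 to 115 up, 84 to 95 down, 28 to 33 highest, 17 to 23 lowest, 32 to 38 up and 25 to 33 down in Pachón alone, and 215 to 236 with an interval within 2-fold. In all 12 such fits, 90 of the 109 upregulated and 70 of the 94 downregulated miRNAs kept their call. Of the 30 miRNAs highest in Pachón, 26 stayed in that set in all 12 fits, and of the 22 lowest, 11 did.

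Of the named miRNAs, none changed direction. The calls of miR-45 (without surface replicate 3, given above), miR-429 (without surface replicate 1, given above), miR-560, and miR-439 were lost under some alternatives. miR-45 also lost its call with glmTreat, miR-560 after thinning (edgeR adjusted p = 0.0504), and miR-439 after both (edgeR adjusted p = 0.202 with glmTreat). miR-85, miR-89, and miR-191 passed the fold-change rule under some. At under 1 CPM no miRNA had an interval within 2-fold, so depth limits what can be said there.

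With the replicate number as a block, 110 miRNAs were upregulated and 93 downregulated, 30 were highest and 22 lowest in Pachón, 33 were up and 32 down in Pachón alone, and 235 had an interval within 2-fold. The deviations of same-numbered libraries of Pachón and surface fish had correlations of −0.00683, 0.0437, and 0.0418. Those of differently numbered libraries ran from −0.165 to 0.112. With 3 libraries per morph these values cannot show whether same-numbered libraries shared a collection or preparation.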
